A study of Mus musculus with 8 samples.

Results

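The ATP-binding cassette (ABC) transporter family was followed in endothelial cells of the mouse brain. Members were taken by gene symbol alone, as every symbol of the form Abc, a letter from a to g and a number, with an optional closing letter. This gave 50 genes of the 24394 symbols shared by the 8 libraries. Of the 50, 31 were above 0 in at least 1 library, 10 were above 0 in all 8 libraries, and 19 were listed at 0 in all of them. The study set 4 YT-ECKO libraries against 4 WT libraries, all from C57BL/6J mice at postnatal day 8, with endothelial cells sorted from brain by flow cytometry. The YT-ECKO genotype is VE-cadherin-CreERT2 Yapf/f Tazf/f, in which an inducible Cre of endothelial cells acts on floxed Yap and Taz alleles. These genes, listed as Yap1 and Wwtr1, encode co-activators of transcription that the Hippo pathway restrains. WT mice are labelled as wild type with no such allele named, so the transgene, the floxed alleles, the deletion and any inducing drug cannot be told apart. VE-cadherin is made by endothelium of all organs, so the driver is not limited to brain. Nothing in the labels ties a library to its own mouse, and p-values therefore measure the spread between these libraries, which may be technical.

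ABC proteins bind and hydrolyse ATP in a pair of conserved nucleotide-binding domains, and most use that energy to move a substrate across a membrane. In brain capillaries, P-glycoprotein and the breast cancer resistance protein sit in the membrane facing the blood and return many drugs to it, which makes them part of the blood-brain barrier. Other members move cholesterol and phospholipids, organic anions, peroxisomal fatty acids, or products of mitochondria. The ABCE and ABCF proteins have no membrane spans and act with the ribosome.

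Values are scaled reads, listed by library in the order 1 to 4 of each group, that is read counts that the authors scaled to a common library size, returned here from log2 to the linear scale. A library summed to between 10.3 M and 10.9 M scaled reads, and the spacing of low values implied between 6.66 M and 16.8 M reads counted to genes. How many RNA molecules these reads came from was not measured. Between 7538 and 8762 genes were above 0 per YT-ECKO library and between 8621 and 9720 per WT library. Log2 differences are YT-ECKO minus WT, fitted with limma to log2 scaled reads after adding a fixed pseudocount, which makes the differences of low genes smaller. Their p-values were adjusted over all 8706 genes tested by the Benjamini-Hochberg method, with a threshold of 0.05. Wwtr1, one of the deleted genes, averaged 1335 ± 939 scaled reads in YT-ECKO and 6633 ± 1159 in WT (SD, n = 4 each; limma adjusted p = 0.0113), and Yap1 averaged 327 ± 248 in YT-ECKO and 1964 ± 613 in WT (limma adjusted p = 0.175). The floxed exons are not given in the labels, and how much of each allele was deleted is not measured by these levels. The endothelial identity of the sort was checked with 12 brain endothelial markers, all of them tested, whose sum lay between 80572 and 110248 scaled reads in YT-ECKO and between 83324 and 100420 in WT. Markers of other cell types were far lower: mural markers summed to between 58.5 and 1152 scaled reads per YT-ECKO library and between 413 and 1502 per WT library, and microglial markers to between 0 and 130 per YT-ECKO library and between 0 and 161 per WT library. Lists for fibroblasts, astrocytes, oligodendrocytes, neurons and choroid plexus reached at most 1896 scaled reads in YT-ECKO (neurons) and 5029 in WT (choroid plexus), and Anpep among the 10 mural markers and 4 of the 8 microglial markers were at 0 in all libraries. Hemoglobin and other erythroid transcripts were the exception, with identical rows for Hba-a1 and Hba-a2 and for Hbb-bs and Hbb-b1 all summed, at between 16594 and 55100 scaled reads per YT-ECKO library and between 15996 and 45227 per WT library.

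The genes for P-glycoprotein lie side by side on chromosome 5, and their sequences are shown because they bear on how well their reads can be told apart. In rodents P-glycoprotein is made from a pair of genes, Abcb1a (GRCm38, 5: 8660077 to 8748575, plus strand) and Abcb1b (5: 8798147 to 8866315, plus strand), followed by Abcb4 (5: 8893717 to 8959231, plus strand), whose product moves phosphatidylcholine into bile in the liver. The coding sequences of Abcb1a and Abcb1b were identical at 88.2% of aligned bases, those of Abcb1a and Abcb4 at 76.3%. The longest run shared by Abcb1a and Abcb1b was 338 bases. The last part of that run and the 12 bases after it are given below, from coding position 1557 to 1706 in Abcb1a and from 1566 to 1715 in Abcb1b (GENCODE release M21), with the base that differs in capitals:
Abcb1a: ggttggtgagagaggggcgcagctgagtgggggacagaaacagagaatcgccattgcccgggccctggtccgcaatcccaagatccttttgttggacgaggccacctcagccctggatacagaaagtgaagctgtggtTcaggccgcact
Abcb1b: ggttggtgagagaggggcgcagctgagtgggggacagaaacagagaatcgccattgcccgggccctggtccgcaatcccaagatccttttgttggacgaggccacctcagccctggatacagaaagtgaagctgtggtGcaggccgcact
Of all 36-base stretches in the annotated Abcb1a transcripts, 20.0% also occurred in Abcb1b, and of those of Abcb1b 13.6% occurred in Abcb1a. A read that lies wholly within such a stretch cannot be assigned to either gene, and no source used here gives how the authors treated it. These shares cover whole transcripts and were not measured for the part of a transcript that was read. Abcb1a also overlaps the annotated genes Gm42684 on its own strand and Gm42686 on the other. Its reads and those of Abcb1b are therefore uncertain, to a degree that was not measured.

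Sequence around transcription starts was available for 38 of the 50 members, in 45 windows of 300 bases from RefSeq (GRCm38.p6), each reaching from 250 bases before to 50 bases after the start. The windows of the 3 neighbours on chromosome 5 are shown since the levels of these genes differed so widely in these cells, as given below. Capitals mark GGAATG, the core motif of the TEAD factors through which YAP and TAZ act, or GGGCGG, the GC box, on either strand. The window of Abcb1a is chr5:8566841-8567140, upstream of the gene start in GENCODE, that of Abcb1b is chr5:8797897-8798196 and that of Abcb4 is chr5:8893471-8893770, all on the plus strand:
Abcb1a: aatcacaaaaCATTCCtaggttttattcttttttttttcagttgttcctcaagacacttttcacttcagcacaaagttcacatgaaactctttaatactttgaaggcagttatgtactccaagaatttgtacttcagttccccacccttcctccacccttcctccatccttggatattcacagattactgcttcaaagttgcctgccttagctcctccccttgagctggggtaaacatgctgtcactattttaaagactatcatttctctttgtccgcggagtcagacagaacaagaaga
Abcb1b: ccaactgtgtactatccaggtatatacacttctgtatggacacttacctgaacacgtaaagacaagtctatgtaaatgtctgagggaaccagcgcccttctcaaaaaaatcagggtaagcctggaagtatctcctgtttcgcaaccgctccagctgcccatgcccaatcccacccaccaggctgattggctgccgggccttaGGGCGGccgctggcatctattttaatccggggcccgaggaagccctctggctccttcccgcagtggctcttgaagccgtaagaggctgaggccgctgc
Abcb4: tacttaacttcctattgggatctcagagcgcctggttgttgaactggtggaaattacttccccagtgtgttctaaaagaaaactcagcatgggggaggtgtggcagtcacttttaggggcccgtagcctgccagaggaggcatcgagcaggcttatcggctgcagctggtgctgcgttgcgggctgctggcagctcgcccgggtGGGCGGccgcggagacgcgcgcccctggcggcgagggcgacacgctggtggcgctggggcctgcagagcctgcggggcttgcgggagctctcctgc
The Abcb1a window held 1 TEAD motif, no GC box and 2 CpG dinucleotides. It ends at 8567140, far before the GENCODE gene start at 8660077, and its use in these cells was not tested. The windows of Abcb1b and Abcb4, which include their GENCODE gene starts, each held 1 GC box and no TEAD motif, with 12 and 21 CpG dinucleotides. GGAATG was found in 8 of the 45 member windows (17.8%), against 14.7% of all 32851 windows. The 8 genes were Abca3, Abca8a, Abca17, Abcb1a, Abcc9, Abcc12, Abcg5 and Abcg8. Of these, Abcb1a was the single one above 0 in all 8 libraries. GGGCGG was found in 21 of the 45 member windows (46.7%), against 35.7% of all windows. The letters describe these windows and do not show binding.

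Multidrug efflux genes of the ABCB group were represented by Abcb1a. Abcb1a had 3500, 4188, 2195 and 2439 scaled reads across the YT-ECKO libraries, compared with 3385, 2110, 3456 and 2535 across the WT libraries. The groups overlapped throughout, and the means were 3080 ± 931 in YT-ECKO and 2872 ± 658 in WT (SD, n = 4 each). The log2 difference was 0.08 ± 0.34 (SE), with a 95% interval from -0.62 to 0.78 (limma adjusted p = 0.994; two-sided exact permutation p = 0.686). By its WT mean it ranked 637 of all 24394 symbols. Fewer cells of a type and less RNA per cell cannot be told apart in such bulk samples. Abcb1b, its neighbour, had 0, 103, 114 and 0 scaled reads across the YT-ECKO libraries, compared with 81.1, 1.48, 8.64 and 122 across the WT libraries. Abcb4 was above 0 in YT-ECKO 4 alone, at 4.61 scaled reads. Abcb5 and Abcb11, the bile salt export pump of liver, were listed at 0 in all 8 libraries. Levels per kb of transcript apply only if reads come from whole transcripts. On that scale, Abcb1a stood at 616 ± 186 scaled reads in YT-ECKO and 575 ± 132 in WT. Abcb1b stood at 12.6 ± 14.6 in YT-ECKO and 12.4 ± 13.6 in WT (SD, n = 4 each). Most reads for P-glycoprotein thus carried the Abcb1a symbol in both groups, within the limit set by the shared stretches above.

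**Figure D1:**
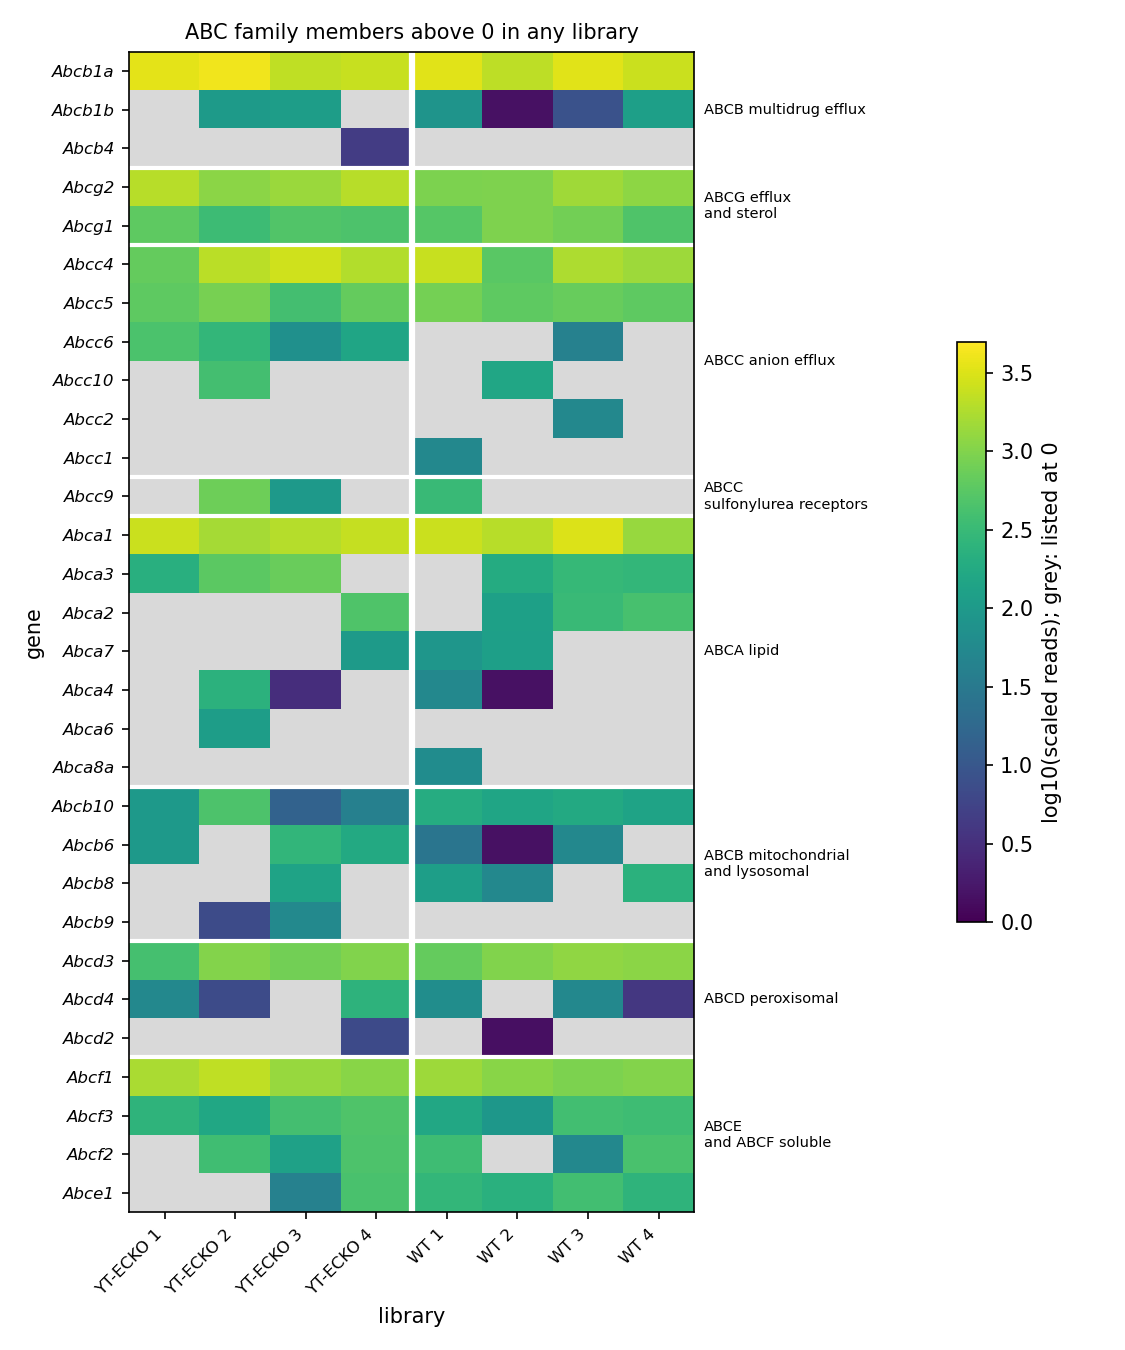
Scaled reads of 30 ABC members above 0 in at least 1 library, on a log10 colour scale, with genes as rows grouped by role and the 4 YT-ECKO libraries left of the 4 WT libraries; grey means listed at 0. Bright rows such as Abcb1a, Abcg2, Abcc4, Abca1, Abcd3 and Abcf1 run through all 8 libraries, and Abcc6 is filled in the 4 YT-ECKO libraries and in WT 3.

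Of the ABCG group, Abcg2 and Abcg1 were above 0 in all 8 libraries and the other 4 members were listed at 0 in all of them. Abcg2 (GRCm38, 6: 58584523 to 58695676, plus strand) encodes the breast cancer resistance protein, the other major drug pump of brain capillaries. It had 2035, 1121, 1388 and 2014 scaled reads across the YT-ECKO libraries, compared with 930, 961, 1500 and 1193 across the WT libraries. YT-ECKO 1 and YT-ECKO 4 lay above every WT library, and YT-ECKO 2 and YT-ECKO 3 lay within the WT range. The means were 1640 ± 458 in YT-ECKO and 1146 ± 264 in WT (SD, n = 4 each), and the log2 difference of 0.46 ± 0.40 (SE) did not pass the test (95% interval from -0.37 to 1.28; limma adjusted p = 0.990; exact permutation p = 0.143). Abcg1, which passes cholesterol to lipoproteins, had 614, 339, 503 and 463 scaled reads across the YT-ECKO libraries, compared with 525, 953, 826 and 477 across the WT libraries. WT 2 and WT 3 stood above all YT-ECKO libraries, and WT 1 and WT 4 within their range. The log2 difference of Abcg1 was -0.41 ± 0.49 (SE; 95% interval from -1.42 to 0.59; limma adjusted p = 0.990). Abcg5 and Abcg8, whose products together export plant sterols and cholesterol in gut and liver, Abcg3 and Abcg4 were the 4 at 0.

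Among the 8 members of the ABCC group other than the sulfonylurea receptors, Abcc4 and Abcc5 were found in all libraries. Abcc4 (GRCm38, 14: 118482692 to 118706219, minus strand), or multidrug resistance protein MRP4, exports cyclic nucleotides and organic anions and had 665, 2107, 2684 and 1855 scaled reads across the YT-ECKO libraries, compared with 2432, 563, 1764 and 1456 across the WT libraries. Each group held 1 low library, YT-ECKO 1 and WT 2, which are also the libraries with the lowest implied depth of their groups (6.66 M and 7.45 M reads). The part of depth in these values was not tested. The means of Abcc4 were 1828 ± 849 in YT-ECKO and 1554 ± 776 in WT (SD, n = 4 each), and they differed by 0.22 ± 0.46 on the log2 scale (SE; 95% interval from -0.73 to 1.18; limma adjusted p = 0.991). Abcc5, MRP5, which also exports cyclic nucleotides, had 610, 873, 390 and 659 scaled reads across the YT-ECKO libraries, compared with 858, 615, 697 and 602 across the WT libraries. The groups overlapped and the log2 difference was -0.14 ± 0.47 (SE; 95% interval from -1.11 to 0.83; limma adjusted p = 0.994). Abcc1, the founding MRP gene, was above 0 in WT 1 alone (52.9 scaled reads) and Abcc2, the organic anion pump of bile canaliculi, in WT 3 alone (53.2). Abcc10 was above 0 in YT-ECKO 2 (394) and WT 2 (155), and Abcc3 and Abcc12 were at 0 throughout.

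Abcc6 was the single member whose groups did not overlap. Abcc6 (GRCm38, 7: 45967555 to 46030302, minus strand) encodes MRP6, a protein best known from liver, where it mediates release of ATP that is turned into pyrophosphate, an inhibitor of calcification. It had 451, 278, 71.4 and 148 scaled reads across the YT-ECKO libraries, compared with 0, 0, 42.4 and 0 across the WT libraries. All 4 YT-ECKO libraries lay above all 4 WT libraries, of which 3 were listed at 0, and the nearest values were 71.4 in YT-ECKO 3 and 42.4 in WT 3. The log2 difference was 1.29 ± 0.48 (SE) with a 95% interval from 0.32 to 2.27. It had an unadjusted limma p of 0.0116 and did not pass over all genes (limma adjusted p = 0.746). The two-sided exact permutation p was 0.0286, the smallest that 4 libraries against 4 allow. Of the 8706 genes tested, 1.33% were higher in YT-ECKO without overlap, and 3.4% were without overlap in either direction. Of the 20 ABC members tested 1 was, so the count rests on a single gene. Abcc6 also reached the minimum for testing only through the YT-ECKO libraries, and a gene that enters in this way has to differ. No 36-base stretch of its transcripts occurs in transcripts of another gene read in the same direction, and the opposite direction was not searched. On the opposite strand Abcc6 overlaps the annotated gene Gm45674, which has no row of its own among the symbols shared by the libraries. Whether the counts used strand is not stated by any source at hand, so reads of the pair cannot be told apart. Across other pseudocounts, scalings, filters and left-out libraries its log2 difference ran from 0.49 to 6.80 and its limma adjusted p from 0.498 to 0.998. The summed level of 4 genes of the Y chromosome was another measure whose groups stood apart, lying between 486 and 1379 scaled reads for YT-ECKO and between 4.43 and 471 for WT. Xist, made from the inactive X chromosome of females, had 6299, 8434, 4150 and 6.91 scaled reads across the YT-ECKO libraries, compared with 17929, 8255, 22931 and 4611 across the WT libraries, so YT-ECKO 4 stood apart within its group. WT 2 had the lowest sum of the Y genes, at 4.43, while YT-ECKO 2 had 1249 and WT 3 had 416 beside their high Xist. Whether a library holds RNA of both sexes was not tested, nor was the part of these genes in the result.

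The regulatory subunits of ATP-sensitive potassium channels belong to the family by sequence. Abcc9, the subunit of vascular smooth muscle and pericytes, had 0, 767, 95.9 and 0 scaled reads across the YT-ECKO libraries, compared with 326, 0, 0 and 0 across the WT libraries. Kcnj8, its pore partner and a mural marker, was listed at 0 in all 4 YT-ECKO libraries and had 157, 32.9, 0 and 0 scaled reads across the WT libraries. Pdgfrb, the pericyte receptor, was above 0 in YT-ECKO 3 (524), WT 1 (339) and WT 2 (91.8), and was picked for mention after its values were seen. Of the 10 mural markers 5 were tested, all 5 with negative log2 differences (median -0.43) and none passing over all genes, and their part in the values of Abcc9 was not tested. Abcc9, Kcnj8 and Pdgfrb were all above 0 in WT 1, while YT-ECKO 2 held the most Abcc9 and neither Kcnj8 nor Pdgfrb. YT-ECKO 3 held Abcc9 and Pdgfrb without Kcnj8, and WT 2 held Kcnj8 and Pdgfrb with Abcc9 at 0. Abcc8, the subunit of pancreatic beta cells and neurons, and Kcnj11, the other pore gene, were at 0 in all libraries.

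**Figure D2:**
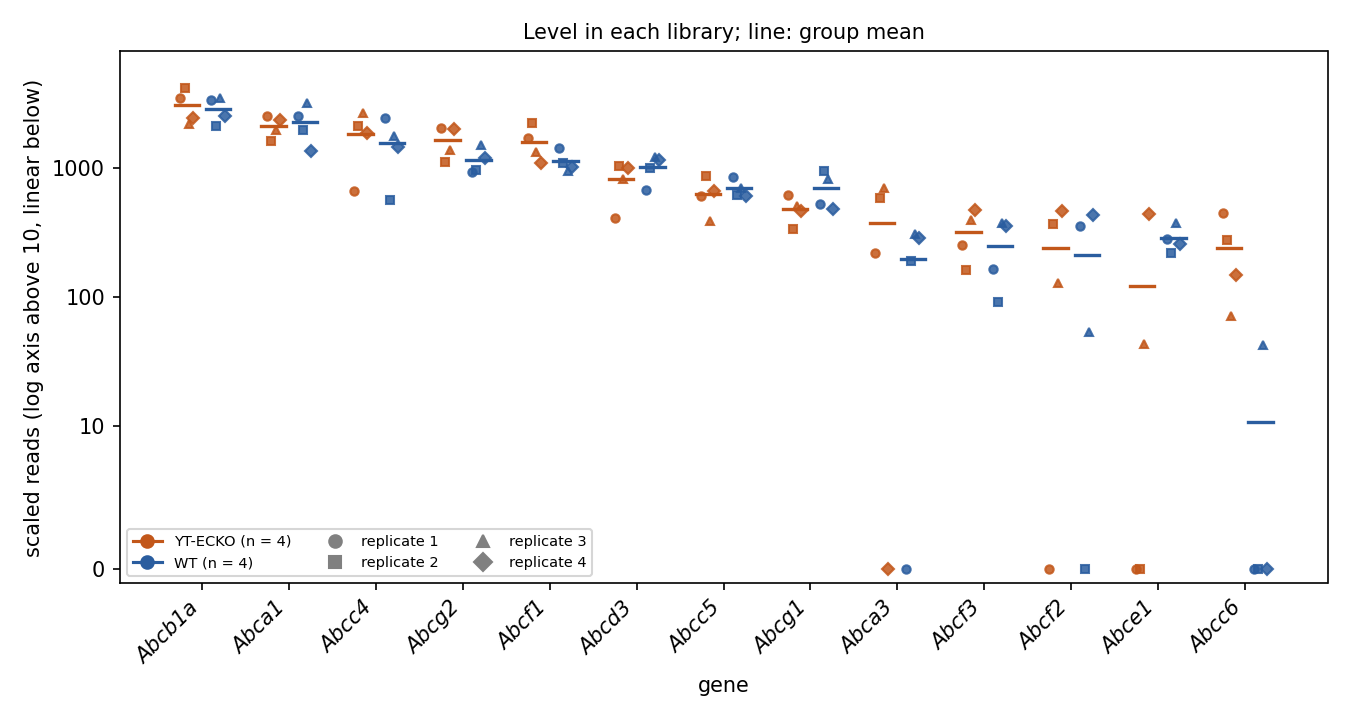
Scaled reads in each library for 13 members, on an axis that is logarithmic above 10 and linear below; YT-ECKO points stand left of WT points, symbols give the replicate number and lines the group means (n = 4 each). The groups overlap for every gene shown except Abcc6, whose YT-ECKO libraries lie between 71.4 and 451 and whose WT libraries lie between 0 and 42.4.

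The ABCA group, with 16 genes the largest, was mostly not detected. It had 7 members above 0 in some library, and Abca1 was its single member above 0 in all. Abca1 (GRCm38, 4: 53030787 to 53159895, minus strand) loads cholesterol and phospholipid onto apolipoproteins and is a classical target of liver X receptors. It had 2513, 1609, 1966 and 2335 scaled reads across the YT-ECKO libraries, compared with 2520, 1980, 3194 and 1356 across the WT libraries. The YT-ECKO libraries all lay inside the WT range, with means of 2106 ± 402 in YT-ECKO and 2262 ± 782 in WT (SD, n = 4 each). The fitted log2 difference was -0.05 ± 0.37 (SE; 95% interval from -0.81 to 0.70; limma adjusted p = 0.996). Abca3, which supplies lung surfactant with lipid, had 219, 582, 705 and 0 scaled reads across the YT-ECKO libraries, compared with 0, 189, 305 and 286 across the WT libraries. Each group thus held 1 library at 0, and the log2 difference was 0.46 ± 0.65 (SE; limma adjusted p = 0.990). Abca2, a lipid transporter abundant in oligodendrocytes, was at 0 in YT-ECKO 1 to 3 and WT 1, and had 477 scaled reads in YT-ECKO 4 and 125, 317 and 424 in WT 2 to 4.

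The other detected ABCA genes were sporadic. Abca7, whose human counterpart carries risk variants for Alzheimer's disease, had 105 scaled reads in YT-ECKO 4 and 87.3 and 122 in WT 1 and WT 2. Abca4, the retinal transporter of photoreceptors, had 235 in YT-ECKO 2, 3.04 in YT-ECKO 3, 54.0 in WT 1 and 1.48 in WT 2. Of the gene cluster on chromosome 11 that holds Abca5, Abca6, Abca8a, Abca8b and Abca9, Abca6 was above 0 in YT-ECKO 2 (116) and Abca8a in WT 1 (63.6). The rest of that cluster, as well as Abca12, Abca13, Abca14, Abca15, Abca16 and Abca17, were listed at 0 in all 8 libraries.

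Mitochondrial and lysosomal ABCB genes were low in both groups. Abcb10, an inner membrane protein needed for haem synthesis, was above 0 in all libraries, with 100, 467, 14.6 and 41.4 scaled reads across the YT-ECKO libraries, compared with 193, 148, 178 and 142 across the WT libraries. The YT-ECKO libraries spanned a far wider range than the WT libraries, and the SD was 211 in YT-ECKO and 24.4 in WT. Abcb6, linked to porphyrin transport, had 102, 0, 276 and 179 scaled reads across the YT-ECKO libraries, compared with 27.6, 1.48, 52.8 and 0 across the WT libraries. The fitted difference of 0.74 ± 0.42 (SE) did not pass the test (limma adjusted p = 0.954; exact permutation p = 0.143). Reads of Abcb6 are uncertain, since 51.5% of its 36-base stretches also occur in transcripts of Gm29253, an annotated gene that overlaps it on the same strand. Gm29253 has no row of its own among the symbols shared by the libraries. Abcb8 was above 0 in YT-ECKO 3 (138) and in WT 1, WT 2 and WT 4 (119, 53.1 and 234). Abcb9, a lysosomal peptide transporter, was above 0 in YT-ECKO 2 (7.09) and YT-ECKO 3 (54.9).

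The peroxisomal group was carried by Abcd3 (GRCm38, 3: 121758774 to 121815302, minus strand), which encodes the abundant peroxisomal membrane protein PMP70. It had 408, 1031, 822 and 992 scaled reads across the YT-ECKO libraries, compared with 671, 997, 1222 and 1146 across the WT libraries. YT-ECKO 1 was the lowest library, and the other 3 YT-ECKO libraries lay within the WT range. The log2 difference was -0.31 ± 0.45 (SE; 95% interval from -1.23 to 0.62; limma adjusted p = 0.990). Abcd4, which takes part in the release of vitamin B12 from lysosomes, stood between 0 and 250 scaled reads in the YT-ECKO libraries and between 0 and 65.1 in the WT libraries. Abcd2 reached 6.73 scaled reads in YT-ECKO 4 and 1.43 in WT 2.

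All 4 genes of the soluble ABCE and ABCF proteins were tested. Abcf1 (GRCm38, 17: 35956819 to 35969761, minus strand), a partner of translation initiation, had 1702, 2236, 1325 and 1088 scaled reads across the YT-ECKO libraries, compared with 1435, 1098, 947 and 1016 across the WT libraries. YT-ECKO 1 and YT-ECKO 2 lay above every WT library, and the other 2 lay within the WT range. Means were 1588 ± 501 in YT-ECKO and 1124 ± 216 in WT (SD, n = 4 each), and the log2 difference of 0.42 ± 0.40 (SE) did not pass (95% interval from -0.40 to 1.25; limma adjusted p = 0.990; exact permutation p = 0.171). Abce1, which splits ribosomes after termination, had 0, 0, 43.0 and 439 scaled reads across the YT-ECKO libraries, compared with 282, 221, 375 and 259 across the WT libraries. It was above 0 in every WT library, whereas 2 YT-ECKO libraries were at 0 and YT-ECKO 4 held the highest value of all. The log2 difference of -1.03 ± 0.59 (SE) was the lowest of the family and did not pass (95% interval from -2.24 to 0.18; limma adjusted p = 0.960; exact permutation p = 0.171). Abcf3 had 251, 160, 392 and 474 scaled reads across the YT-ECKO libraries, compared with 166, 91.8, 375 and 355 across the WT libraries. Abcf2 had 0, 369, 129 and 460 across the YT-ECKO libraries, compared with 358, 0, 53.7 and 430 across the WT libraries. Both overlapped widely, with log2 differences of 0.28 ± 0.57 for Abcf3 and 0.15 ± 0.64 for Abcf2 (SE).

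Across the family, no member passed the test over all genes. Of the 20 members tested, each with 10 or more scaled reads in 4 or more libraries, 0 were higher and 0 were lower in YT-ECKO at a limma adjusted p under 0.05, against 0% of all 8706 genes called higher and 0.0345% called lower. At an unadjusted limma p under 0.05 there was 1 member, Abcc6, against 5.47% of all genes (1.78% higher and 3.69% lower in YT-ECKO). With voom on reads rebuilt from the scaled values, 0 members and 0 of all 8706 genes were called. There 2 members had an unadjusted voom p under 0.05. The share over all genes was not counted for voom, so nothing is drawn from that number. Positive log2 differences were found for 11 members and negative ones for 9, against 3749 positive and 4957 negative over all genes tested. The median log2 difference was 0.11 over the 20 members and -0.09 over all genes tested. Abca2, Abcb1b, Abcb8, Abcb10 and Abcd4 lay between -0.66 (Abca2) and 0.25 (Abcd4), with limma adjusted p between 0.990 and 0.998. Abca3, Abcb1b, Abcb10, Abcc4 and Abce1 also overlap annotated genes on the opposite strand, whose reads cannot be told apart from theirs without strand. These 20 are the members that passed the minimum, not the family. The narrowest 95% interval among the 20 was that of Abcb1a (-0.62 to 0.78) and the widest that of Abca3 (-0.88 to 1.80).

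**Figure D3:**
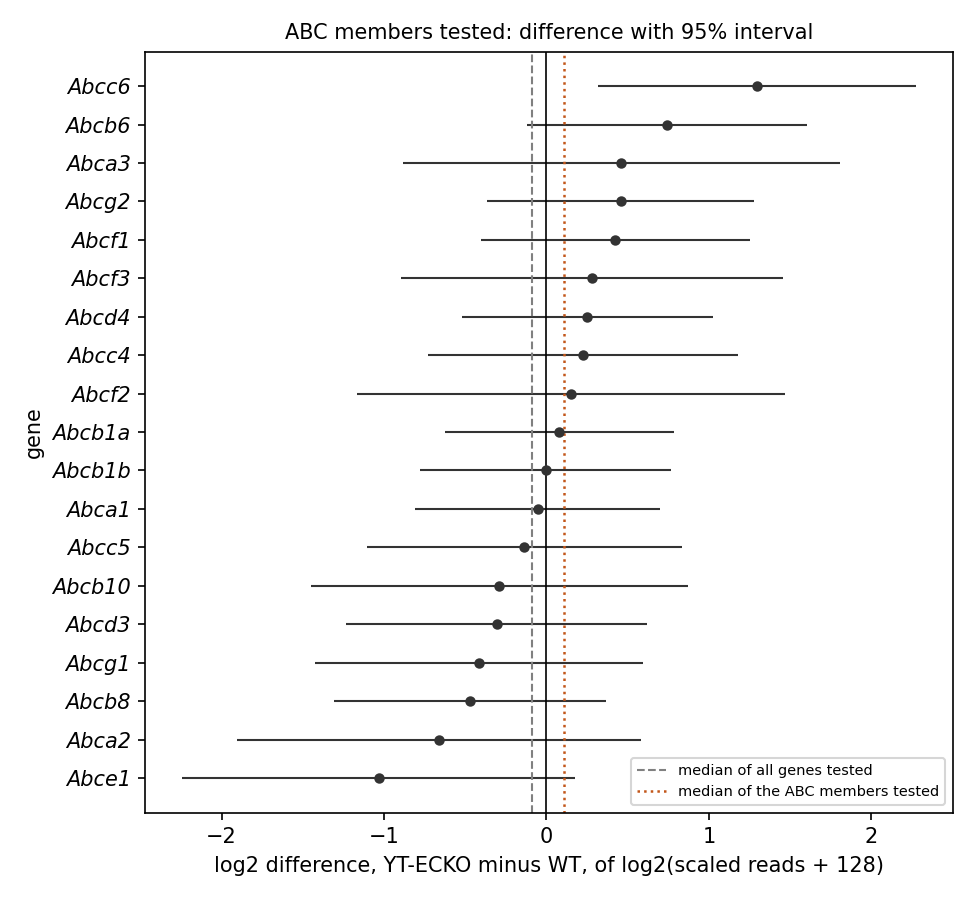
Log2 difference, YT-ECKO minus WT, of log2 scaled reads after adding the pseudocount, for 19 of the 20 members tested, with 95% intervals from limma; the dashed line marks the median of all genes tested (-0.09) and the dotted line that of the 20 members (0.11). The interval of Abcc6 lies above 0, and those of the other 18 members shown include 0.

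The number of members detected did not differ between the groups beyond their spread. Members above 0 numbered 15, 21, 21 and 19 across the YT-ECKO libraries and 22, 21, 20 and 18 across the WT libraries. The means were 19.0 ± 2.83 in YT-ECKO and 20.2 ± 1.71 in WT (SD, n = 4 each; two-sided exact permutation p = 0.629), with YT-ECKO 1, the shallowest library, the lowest. Over the whole table, genes above 0 averaged 8338 ± 553 in YT-ECKO and 9342 ± 514 in WT (SD, n = 4 each, two-sided exact permutation p = 0.0857). The part of depth in these counts was not tested. All members together made up 0.128% to 0.160% of the scaled total of a YT-ECKO library and 0.0976% to 0.144% of that of a WT library. The 5 most abundant members, Abcb1a, Abca1, Abcc4, Abcg2 and Abcf1, took between 65.8% and 76.8% of the family sum per YT-ECKO library and between 62.5% and 72.4% per WT library. Abcb1a was the highest member in 7 of the 8 libraries and Abcc4 in YT-ECKO 3. The median SD within groups, on the log2 scale after adding the pseudocount, was 0.38 for the 5 members averaging 1000 scaled reads or more, with Abcc4 far above it at 0.81, and 0.53 for all 1935 such genes. For the 20 tested members it was 0.53, and for all tested genes 0.69. No test was made of these SDs.

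The order of levels among members depends on transcript length where reads come from the whole transcript. The labels name a Quant-Seq kit but not the part of a transcript that is read. If reads come only from its end, length does not enter and the scaled reads themselves give the order. For the other case, levels were also divided by the length of the longest annotated coding transcript. It ran from 3090 bases for Abcf3 to 10262 bases for Abca1 among the 10 members above 0 in all libraries. On this scale Abcb1a came first, with 616 ± 186 scaled reads per kb in YT-ECKO and 575 ± 132 in WT (SD, n = 4 each). Abcf1 followed, with 502 ± 158 per kb in YT-ECKO and 356 ± 68.5 in WT. Abcb1a stood above Abcf1 in all 8 libraries and was the highest member per kb in 7, Abcc4 being the highest in YT-ECKO 3. Next by WT mean came Abcd3 with 233 ± 81.7 per kb in YT-ECKO and 289 ± 69.95 in WT, and Abcc4 with 320 ± 149 in YT-ECKO and 272 ± 136 in WT. Abca1 stood at 205 ± 39.2 per kb in YT-ECKO and 220 ± 76.2 in WT, and so moved from the second place by scaled reads to the fifth. Abcg2 had 287 ± 80.1 per kb in YT-ECKO and 200 ± 46.1 in WT, above Abcg1 in all 8 libraries. The WT ranges of all neighbours in this order overlapped. Within libraries, Abcb1a over Abcf1 and Abcg2 over Abcg1 were the neighbour pairs in the same order in all 8, and the other neighbour pairs changed order between libraries.

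**Figure D4:**
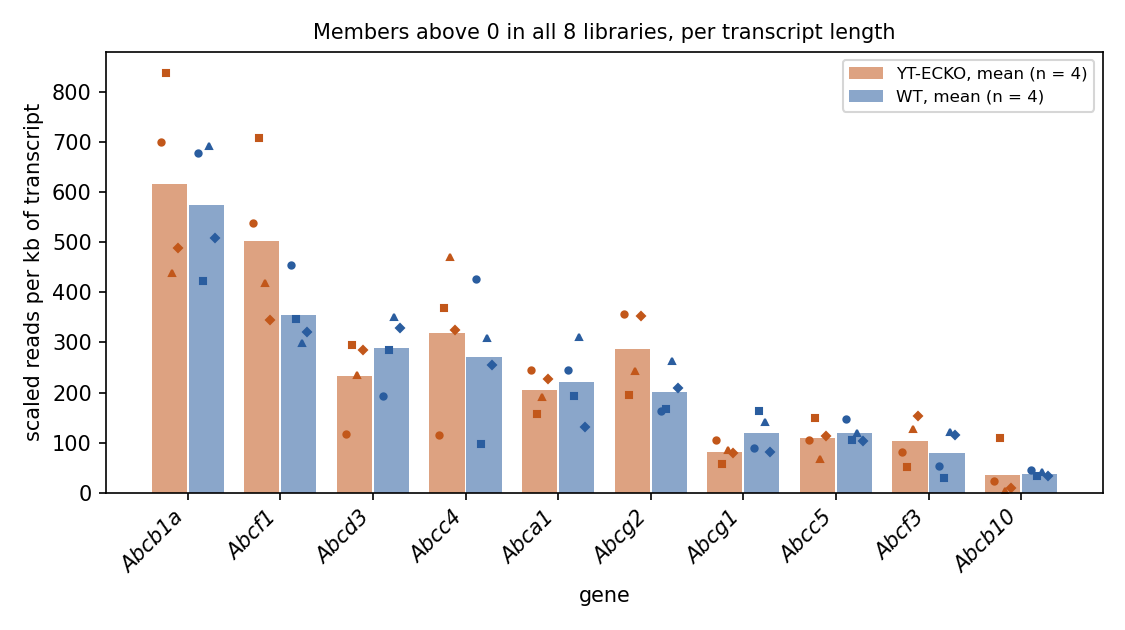
Scaled reads per kb of the longest annotated coding transcript for the 10 members above 0 in all 8 libraries, in the order of the WT mean; bars are means (n = 4 each), YT-ECKO left of WT, and points are libraries. Abcb1a leads with means of 616 per kb in YT-ECKO and 575 in WT. The order applies only if reads come from whole transcripts.

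Genes that work with or regulate the family gave no call either. Among 17 regulators of ABC genes, 9 were tested, and 2 had positive and 7 negative log2 differences, with none passing over all genes. Rxrb, a partner of liver X and other nuclear receptors, had 1179, 840, 1271 and 395 scaled reads across the YT-ECKO libraries, compared with 2385, 1359, 1800 and 5638 across the WT libraries. Its YT-ECKO values were all lower than its WT values, and the log2 difference was -1.37 ± 0.46 (SE; limma adjusted p = 0.675; exact permutation p = 0.0286). Over all genes tested, 2.07% were lower in YT-ECKO without overlap. Ppard, another nuclear receptor, differed by -0.57 ± 0.53 on the log2 scale (SE; limma adjusted p = 0.990). Of 12 other liver X receptor targets 9 were tested, 4 positive and 5 negative. The apolipoprotein gene Apod averaged 3124 ± 2163 scaled reads in YT-ECKO and 5370 ± 1689 in WT (SD, n = 4 each; limma adjusted p = 0.882), and Srebf1, the activator of fatty acid synthesis, differed by -0.53 ± 0.62 on the log2 scale (SE; limma adjusted p = 0.990). Of 11 genes for lipid acceptors and their receptors that were measured, 7 were tested, 5 positive and 2 negative, and the 2 with the smallest p were Scarb1, the receptor for high density lipoprotein (log2 difference 0.32 ± 0.38, SE; limma adjusted p = 0.990), and Npc1, the lysosomal cholesterol exporter (0.45 ± 0.58, SE; limma adjusted p = 0.990).

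Partners of the organelle transporters were likewise below the threshold. Of 18 peroxisomal genes 14 were tested, 5 positive and 9 negative. Pex19, the chaperone that delivers peroxisomal membrane proteins such as PMP70, had 803, 1690, 772 and 1227 scaled reads across the YT-ECKO libraries, compared with 715, 565, 490 and 432 across the WT libraries. The groups did not overlap, and the log2 difference was 0.84 ± 0.46 (SE; limma adjusted p = 0.928). Over all genes tested, 1.33% were higher in YT-ECKO without overlap. Hsd17b4, an enzyme of peroxisomal fatty acid oxidation, averaged 263 ± 200 in YT-ECKO and 622 ± 157 in WT (SD, n = 4 each; limma adjusted p = 0.928). Of 16 genes of haem and iron-sulfur synthesis 14 were tested, 4 positive and 10 negative. Glrx5, an iron-sulfur assembly gene, averaged 1081 ± 535 in YT-ECKO and 1574 ± 400 in WT (SD, n = 4 each; limma adjusted p = 0.981). Of the ABC proteins that bear other symbols, Cftr was at 0 in all libraries. Tap1 averaged 68.0 ± 127 in YT-ECKO and 154 ± 49.4 in WT, and Tap2 averaged 1013 ± 562 in YT-ECKO and 1152 ± 670 in WT (SD, n = 4 each; limma adjusted p = 0.981 and 0.991). Both encode chains of the peptide transporter for antigen presentation. Sums of the 8 marker lists of other cell types overlapped between the groups, and their part in these values was not tested.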

How the data were processed

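RNA was measured in 8 libraries, 4 YT-ECKO and 4 WT. The labels' protocols name Trizol extraction, 500 ng of total RNA and a Lexogen Quant-Seq kit. Bowtie2, edgeR and the mm10 build are named in the submitters' processing notes, without versions, counter or annotation. The authors deposited log2 values per symbol and library. Linear values under 12 lay within 0.1 of whole multiples of 1 step per library in 88.3% to 100% of cases, so they were read as log2 of scaled read counts, and a listed 0 was kept at 0. Dividing a library's total by its step gives the implied depth, in reads counted to genes.

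Limma 3.58.1 (R 4.3.3, trended and robust) was fitted to log2(scaled reads + 128) for all 8706 genes with 10 or more scaled reads in 4 or more libraries, with Benjamini-Hochberg adjustment and a threshold of 0.05. Linear means were compared by two-sided exact permutation (SciPy 1.17.1). The fit was tested on simulated data. Positions and transcripts are from GENCODE M21 and promoters from RefSeq. Members and gene lists were chosen with earlier results of these data known. All 8 values are given for members with the 12 highest means, an unadjusted p under 0.05 or groups without overlap, and other members are accounted for by where they were above 0 or by their values. From each partner list, the 2 genes with the smallest p are named. Some members and 1 partner gene, counted in the totals, are not reported here. Alternatives were other pseudocounts, scalings and filters, voom, the replicate number as a block, and left-out libraries.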

Additional observations from a re-analysis of the deposited data

Results flagged for a closer look

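Of 42 groups of 4 values, 4 held a library farther from the rest than Dixon's 95% limit allows. About 1 group in 20 passes by chance where values vary freely, but in 3 of the 4 the other libraries were tied at 0, so that any value above 0 passes and that rate does not apply. In YT-ECKO, Abca2 had 477 scaled reads in YT-ECKO 4 and 0 in the other 3 libraries. Abcb8 had 138 scaled reads in YT-ECKO 3 and 0 in the other 3 YT-ECKO libraries. Abce1 had 439 scaled reads in YT-ECKO 4, against 43.0 in the nearest YT-ECKO library. In WT, Abcc6 had 42.4 scaled reads in WT 3 and 0 in the other 3 libraries.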

How the results depend on the processing

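No ABC member passed in any of the 19 alternatives in which it was tested. The log2 difference of Abcc6 was positive in all 19, from 0.49 with 4 times the pseudocount to 6.80 with voom, with adjusted p from 0.498 to 0.998. Signs turned for members near 0, among them Abcb1a (-0.12 with upper quartile scaling and -0.13 without YT-ECKO 1 and WT 2, chosen after seeing the data) and Abcb1b (0.00096 with 4 times the pseudocount). With single libraries left out, ranges that crossed 0 were -0.26 to 0.12 for Abca1, -0.079 to 0.22 for Abcb1a, -0.15 to 0.14 for Abcb1b, -0.15 to 0.61 for Abcc4, -0.28 to 0.035 for Abcc5 and -0.23 to 0.58 for Abcf2. The difference in members above 0 was -1.25, turned to 1.25 for members above 100 scaled reads, and ranged from -2 to 0.083 with single libraries left out, above 0 without YT-ECKO 1. The median difference of the members lay between -0.074 (without WT 2) and 0.17 with single libraries left out, against 0.11 with all, and with upper quartile scaling at 0.00334, where that of all genes shifted to -0.22. It was 0.013 with a pseudocount of 16 and turned to -0.037 with voom, where that of all genes was -0.26. Calls over all genes numbered 3, against 0 with no filter, 0 with voom, 5 without YT-ECKO 1 and WT 2, and 0 (without WT 2) to 6 (without YT-ECKO 3) with single libraries left out. With the replicate number as a block they numbered 5. What remained after subtracting each gene's group mean correlated between -0.04 and 0.08 for same-numbered libraries. On this measure 1 of 4 YT-ECKO libraries correlated best with its own number. This does not settle whether same-numbered libraries share more than a number. The causes were not tested. WT 1, the deepest library, was at 0 for Abca2 and Abca3, where other WT libraries were well above it. Members above 0 numbered 22 in WT 1 and 15 in YT-ECKO 1, the shallowest library. The part of depth in values at 0 was not tested.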
